A study of Mus musculus with 8 samples.

Results

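The dystrobrevin and dystrophin complex genes described here are 9 genes of the 53700 in the count table: Dtna, Dtnb, Dmd, Utrn, Dag1, Sntb1, Sntb2, Sgcb and Sgce. They were taken by gene symbol, as a set built around Dtna. The set was chosen by the log2 fold change of Dtna between FIH-KO and WT cells, a strong fall, so the values of Dtna in that contrast are given as a description without a test.

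Dystrophin and its relative utrophin tie the actin cytoskeleton to dystroglycan, a membrane receptor for laminins and other matrix proteins. Dystrobrevins bind dystrophin or utrophin and, together with them, hold the syntrophins, adaptor proteins for signaling enzymes and channels, while the sarcoglycans sit beside dystroglycan in the membrane. The complex is best known from muscle, where loss of its parts causes muscular dystrophies, and many non-muscle cells carry versions of it built on utrophin and short forms of dystrophin. FIH, the product of Hif1an, is an oxygen-dependent asparaginyl hydroxylase that limits transcriptional activation by HIF-α.

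The cells were LLC cells, a mouse Lewis lung carcinoma line, and FIH-KO cells obtained by cutting exon 2 of Hif1an with CRISPR/Cas9, followed by single-cell dilution. The labels do not say whether the FIH-KO cells are 1 clone or several, and features of the cell or cells grown out after dilution cannot be told apart from the loss of FIH. The 4 groups were WT cells kept for 16 h at 21% O2 (WT normoxia), WT cells kept for 16 h at 1% O2 (WT hypoxia), FIH-KO cells kept for 16 h at 21% O2 (FIH-KO normoxia) and FIH-KO cells kept for 16 h at 1% O2 (FIH-KO hypoxia). Each group had 2 RNA-Seq libraries, with between 14519731 and 18177016 reads counted on genes per library. The labels do not say that the libraries of a group came from separate cultures, so p values measure the spread between these libraries, which may be technical.

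Levels are given as CPM, the reads of a gene relative to library size after TMM scaling. Each log2 fold change, with its standard error (SE), comes from edgeR's quasi-likelihood model of all 8 libraries and the 13933 genes that passed a filter on low counts. Adjusted p is the Benjamini-Hochberg value over all of these genes in a comparison, and a gene with an adjusted p under 0.05 is called. To test dependence on a library, each of the 4 libraries of the 2 groups compared was left out in turn, with the 4 libraries of the other groups kept. For the difference of the FIH-KO effect each of the 8 was left out.

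The targeted gene was examined first. Hif1an had 84.6 and 82.3 CPM in the WT normoxia libraries and 90.2 and 84.0 CPM in the WT hypoxia libraries. It had 34.8 and 37.7 CPM in FIH-KO normoxia and 45.5 and 51.0 CPM in FIH-KO hypoxia. All 4 FIH-KO libraries lay below all 4 WT libraries, in the direction of their labels. The log2 fold change of FIH-KO over WT was -1.20 (SE 0.12, edgeR adjusted p = 3.1e-05) in normoxia and -0.85 (SE 0.12, edgeR adjusted p = 0.00031) in hypoxia.

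The origin of the RNA was checked against marker genes. Epcam and Cdh1, defining genes of epithelial cells, had at most 1 read in any library, and 5 of 6 markers of differentiated lung epithelium had 3 reads or fewer in every library. Keratin genes were nevertheless present. Krt8 had between 104 and 151 CPM in WT and between 216 and 332 CPM in FIH-KO libraries, and Krt18 between 110 and 205 CPM. Krt19 had between 0.652 and 1.03 CPM in normoxia and between 4.98 and 14.7 CPM in hypoxia. The mesenchymal marker Vim had a mean of 4354 CPM. The cells thus carried keratin and vimentin RNA without the surface markers of epithelium, and some keratins differed with genotype or oxygen. Of 10 markers of skeletal and cardiac muscle, the tissues in which the complex is most abundant, 7 had 3 reads or fewer in every library, and Myod1 and Myog had none. The summed level lay between 0.956 and 1.35 CPM in WT libraries and between 1.82 and 3.69 CPM in FIH-KO libraries, through Des, which had between 0.205 and 0.578 CPM in WT and between 0.976 and 2.87 CPM in FIH-KO libraries. The part of these marker differences in the results below was not tested. Smooth muscle markers varied more, through Acta2, which had 4.37 and 2.43 CPM in WT normoxia, 0.224 and 0.478 in WT hypoxia, 12.0 and 46.1 in FIH-KO normoxia, and 0.937 and 4.49 CPM in FIH-KO hypoxia. All 5 immune markers had 3 reads or fewer in every library.

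Of the 9 complex genes, 8 passed the filter and were tested, and Dmd did not. Their levels can be ranked when CPM is divided by the length of all annotated exons of a gene in kilobases. In WT normoxia the mean level was highest for Dag1, at 31.1 ± 2.01 CPM per kilobase (SD, n = 2), followed by Sntb2 at 16.5 ± 1.30 and Utrn at 6.19 ± 0.0645. Sgcb followed at 5.32 ± 0.714 and Dtnb at 3.76 ± 0.122. Dystroglycan, the β2-syntrophin and utrophin were thus the most abundant RNAs of their kinds in these cells. The lowest levels per kilobase were those of Sntb1 at 1.01 ± 0.0421, Sgce at 0.868 ± 0.0170 and Dtna at 0.568 ± 0.0298. The 2 libraries of WT normoxia did not overlap between neighbours in this order. In WT hypoxia the libraries of Sntb2 and Utrn overlapped, as did those of Sgcb and Dtnb, and in FIH-KO normoxia those of Sgce and Sntb1 overlapped. The order below Utrn depends on the length used: with the longest annotated transcript in place of all exons, Dtnb (7.93 CPM per kilobase) stood above Sgcb (5.93), and Dtna (1.73) above Sntb1 (1.17) in WT normoxia.

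**Figure D1:**
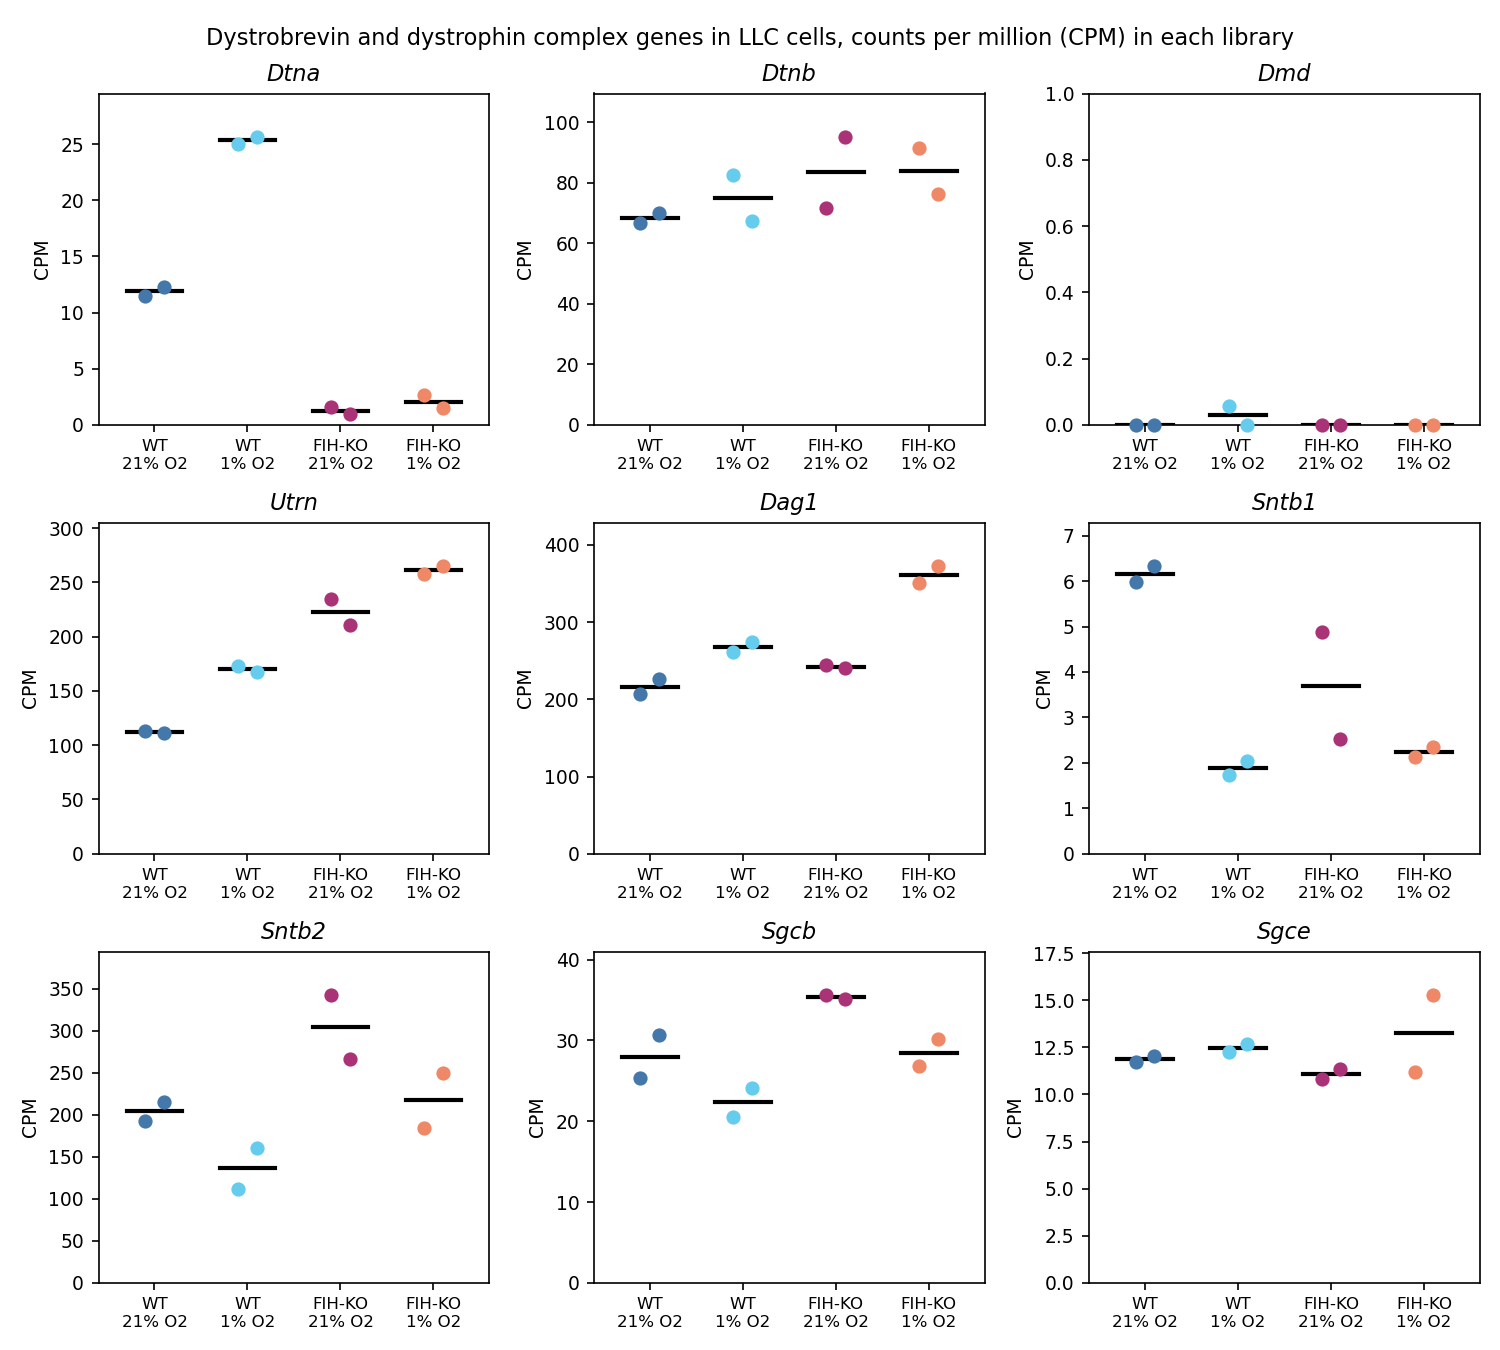
CPM (vertical axes, linear, starting at 0) of the 9 complex genes in every library, by genotype and oxygen level; points are libraries and bars are the means of 2. Dtna was near 0 in FIH-KO cells and highest in WT hypoxia, Utrn was lowest in WT normoxia, and Dmd had a single read.

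Across the 13933 tested genes, 15.2% were called higher and 13% lower in FIH-KO than in WT cells in normoxia, and 14.1% higher and 13.9% lower in hypoxia. Apart from Dtna, 7 complex genes were tested. Of these, 2 were called higher in FIH-KO cells in normoxia (Utrn and Sntb2), 3 in hypoxia (Utrn, Sntb2 and Dag1), and 0 were called lower in either. Since the fall of Dtna in this contrast chose the set, and both comparisons of genotype belong to it, these counts are a description.

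Oxygen was not used to choose the genes. From normoxia to hypoxia in WT cells, where 16.9% of all tested genes were called higher and 15.5% lower, 3 of the 8 complex genes were called higher (Dtna, Utrn and Dag1) and 2 lower (Sntb1 and Sntb2). In FIH-KO cells 8.84% of all tested genes were called higher and 8% lower in hypoxia, and 1 complex gene, Dag1, was called higher and 0 lower. The comparisons of genotype and of oxygen share libraries. The difference of the FIH-KO effect between the oxygen conditions was called by edgeR for 0 of the 13933 genes (0%). For this difference 925 genes had an unadjusted p under 0.05, and DESeq2 called 40 genes, 0 of them complex genes. A call in WT cells that is absent in FIH-KO cells is therefore not shown to differ between the genotypes.

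**Figure D2:**
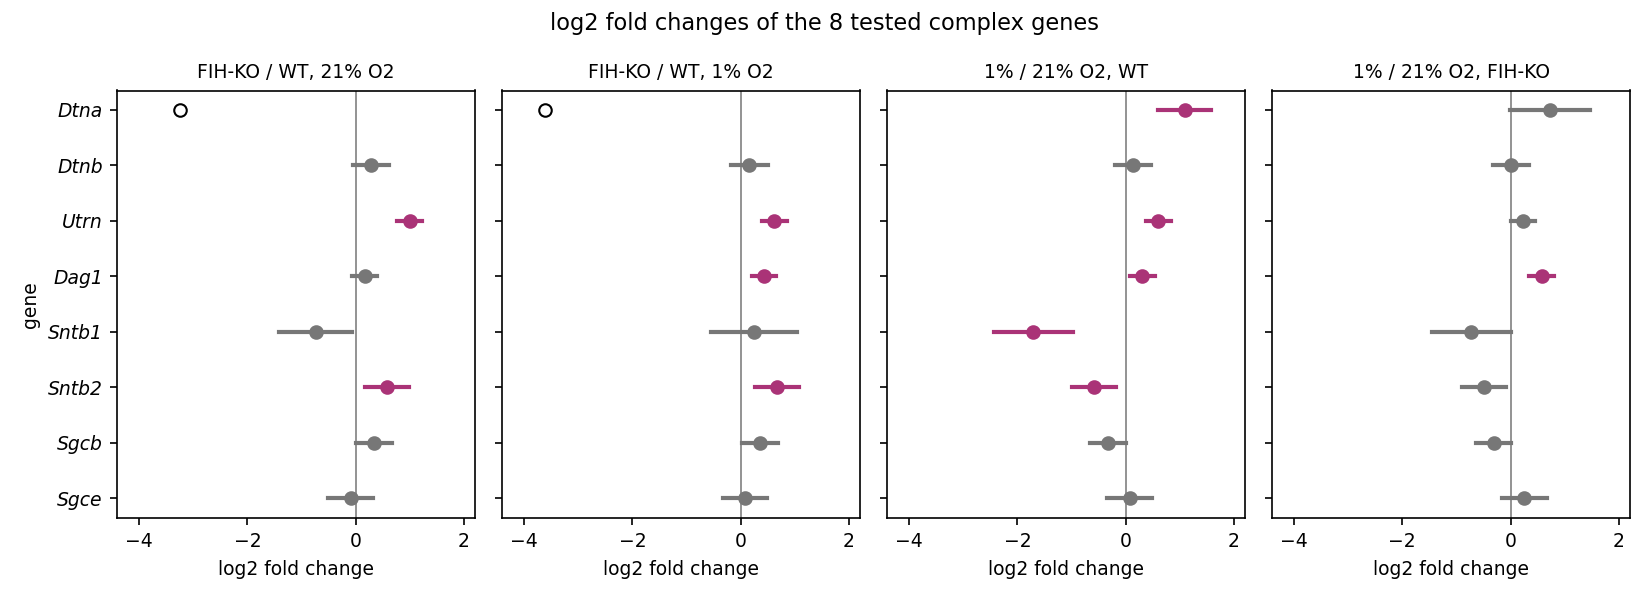
Log2 fold changes (horizontal axes) of the 8 tested complex genes in the 4 comparisons, with 95% confidence intervals from edgeR; colored points have an adjusted p under 0.05 and grey points do not. The open circles of Dtna, at -3.25 and -3.61, have no interval because this contrast selected the gene.

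The dystrobrevins were examined first. Dtna (ENSMUSG00000024302.17) encodes α-dystrobrevin and is read from the plus strand of chromosome 18 (23548183 to 23793477 in GRCm39). It had 178 and 208 reads in the WT normoxia libraries, or 11.4 and 12.3 CPM, and 446 and 376 reads in the WT hypoxia libraries, or 25.0 and 25.7 CPM. In FIH-KO normoxia 26 and 17 reads were counted, or 1.55 and 0.952 CPM, and in FIH-KO hypoxia 42 and 23 reads, or 2.62 and 1.50 CPM. The highest FIH-KO library was thus well below the lowest WT library, which is the pattern that selected the gene. The level in FIH-KO cells was 9.50-fold lower in normoxia (log2 fold change -3.25, SE 0.29) and 12.2-fold lower in hypoxia (-3.61, SE 0.27). In bulk RNA, fewer cells expressing a gene and less of its RNA per cell cannot be told apart. The counts are per gene and do not separate the 85 annotated transcripts of Dtna.

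Hypoxia acted on Dtna in the other direction. In WT cells its level was 2.13-fold higher in hypoxia (log2 fold change 1.09, SE 0.22, edgeR adjusted p = 0.0032), with both hypoxia libraries above both normoxia libraries, and the call was kept in every alternative and with each library left out. In FIH-KO cells the log2 fold change was 0.73 (SE 0.34, edgeR adjusted p = 0.16), and the libraries overlapped. Leaving out FIH-KO hypoxia replicate 2 gave 1.07, which was called, and leaving out replicate 1 gave 0.27, which was not. Without FIH-KO normoxia replicate 1 or 2 the values were 1.11 and 0.42, and neither was called. With all FIH-KO libraries kept, the edgeR adjusted p ran from 0.15 to 0.34. The log2 fold change by genotype, which selected the gene and is not tested here, was more negative in hypoxia by 0.36 (SE 0.41). Of the 3 endothelial markers, Cdh5 had 1.96 and 1.23 CPM in WT hypoxia and at most 0.312 CPM in the other libraries, Pecam1 had 0.280 and 0.546 CPM against at most 0.179 CPM, and Kdr had at most 3 reads in any library. The part of this difference in the Dtna result was not tested.

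Dtnb (ENSMUSG00000071454.14) encodes β-dystrobrevin, the form of non-muscle cells, on the plus strand of chromosome 12 (3621915 to 3841634). It had 66.8 and 69.9 CPM in WT normoxia, 82.4 and 67.3 in WT hypoxia, 71.6 and 95.2 in FIH-KO normoxia, and 91.3 and 76.3 CPM in FIH-KO hypoxia. Libraries of a group differed by about as much as the groups did. The log2 fold change of FIH-KO over WT was 0.29 (SE 0.15, edgeR adjusted p = 0.19) in normoxia and 0.16 (SE 0.15, edgeR adjusted p = 0.47) in hypoxia. Hypoxia against normoxia gave 0.13 (SE 0.15) in WT and 0.01 (SE 0.15) in FIH-KO cells, with edgeR adjusted p of 0.55 and 0.98.

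Per kilobase of exon, Dtna made up 12.9% and 13.3% of the summed dystrobrevin level in the WT normoxia libraries and 20.8% and 24.9% in the WT hypoxia libraries. In the 4 FIH-KO libraries its share lay between 0.861% and 2.43%. Almost all dystrobrevin RNA of FIH-KO cells was therefore that of Dtnb. With the longest transcript as the length, the share of Dtna was between 17.7% and 32.3% in WT libraries and between 1.24% and 3.48% in FIH-KO libraries.

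No gene around Dtna had a fall of similar size. Of the 3 tested genes nearest to it on each side, Mapre2, a microtubule end-binding protein gene 91.9 kb away on the same strand, was higher in FIH-KO cells, with log2 fold changes of 0.46 in normoxia (SE 0.14, edgeR adjusted p = 0.029) and 0.85 in hypoxia (SE 0.15, edgeR adjusted p = 0.0014). Mapre2 also fell in hypoxia in WT cells, by 1.21 on the log2 scale (SE 0.15, edgeR adjusted p = 0.00012), where Dtna rose, and in FIH-KO cells by 0.83 (SE 0.14, edgeR adjusted p = 0.0025). On the other side, Nol4 lies 373 kb away and had log2 fold changes of -0.83 (SE 0.36, edgeR adjusted p = 0.11) and -0.90 (SE 0.33, edgeR adjusted p = 0.059) by genotype. Nol4 rose in hypoxia in WT cells (0.93, SE 0.33, edgeR adjusted p = 0.048) and had 0.85 in FIH-KO cells (SE 0.36, edgeR adjusted p = 0.13), so its signs were those of Dtna in all 4 comparisons. The same held for Rnf138, with 0.34 and 0.23 by oxygen, and for Gm46611, with -0.62 and -0.73 by genotype and 0.28 and 0.16 by oxygen, at smaller sizes than Dtna. Garem1 had 0.05 and -0.15, and Rnf138 had -0.42 and -0.52, of which the second was called (SE 0.16, edgeR adjusted p = 0.026). The pseudogenes or predicted genes Gm46611 and Rpl19-ps7 were not called. The median log2 fold change of these 6 genes was -0.39 in normoxia and -0.34 in hypoxia, beside 0.12 and 0.12 for the 389 other tested genes of chromosome 18.

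**Figure D3:**
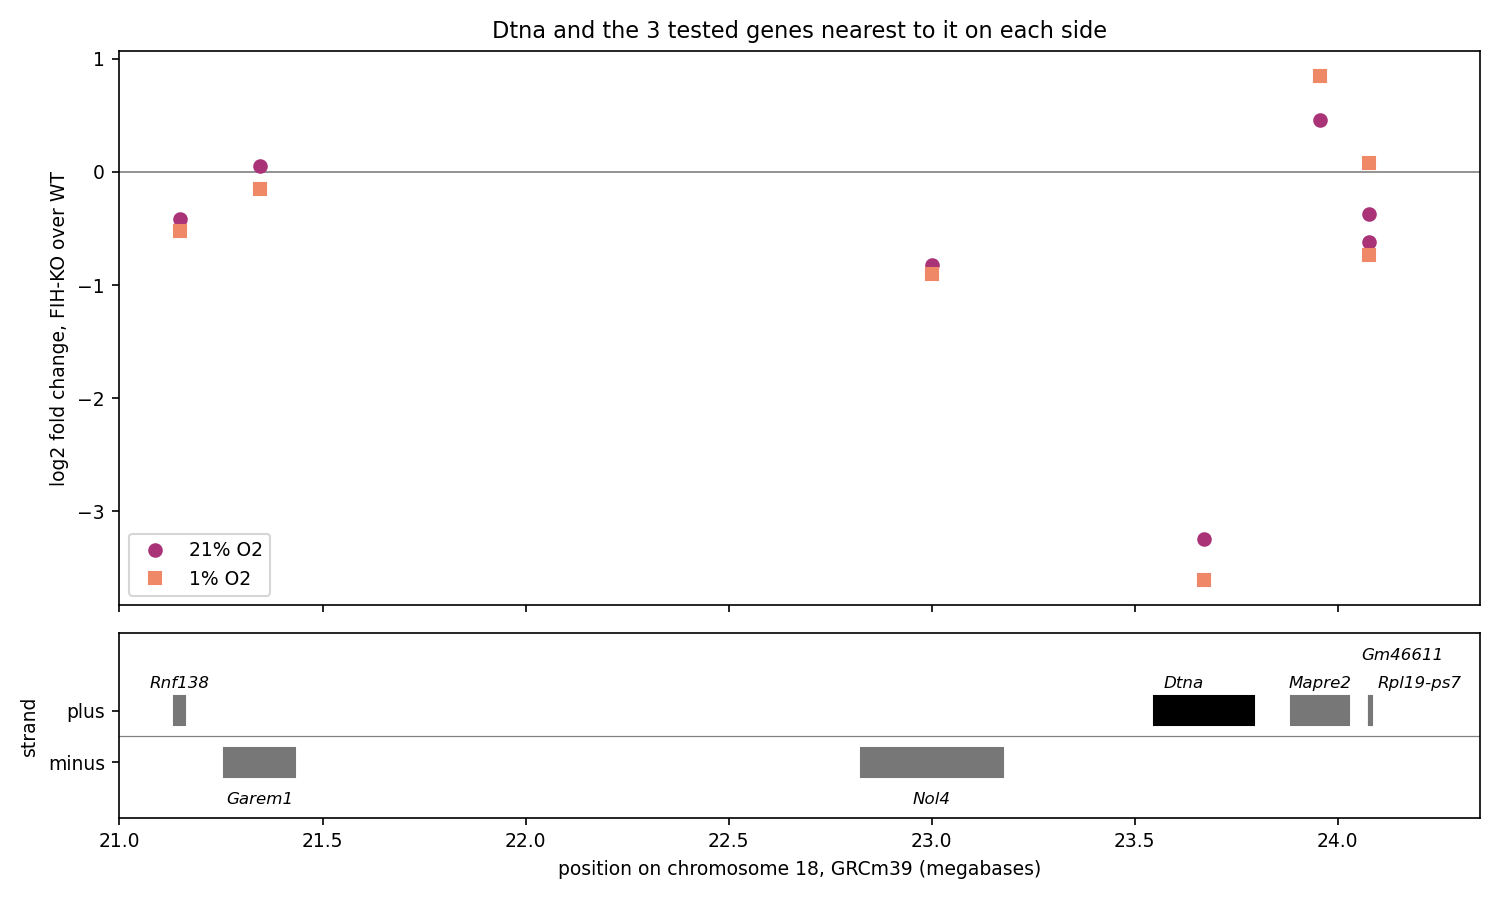
Log2 fold change of FIH-KO over WT (upper panel, vertical axis) at 21% O2 (circles) and 1% O2 (squares) for Dtna and the 3 nearest tested genes on each side, plotted at the middle of each gene, with the genes drawn to scale by strand below (horizontal axis, position on chromosome 18 in megabases). Dtna, at -3.25 and -3.61, lies below its 6 neighbours, which range from -0.90 to 0.85.

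The genes whose log2 CPM followed that of Dtna most closely over the 8 libraries, among the 10575 genes averaging 50 counts or more, were Tmem70 (Pearson r = 0.996), Rbp4 (0.992), Ank2 (0.991), Crmp1 (0.990) and Flt1 (0.987). The libraries fall into 2 genotypes and 2 oxygen levels, so these values describe a shared order of the group levels. The sizes of the changes differed widely. Tmem70, a mitochondrial protein gene, ran from 38.6 to 48.8 CPM, whereas Flt1, a VEGF receptor gene, had between 31.4 and 44.1 CPM in WT libraries and between 1.57 and 3.87 CPM in FIH-KO libraries. Rbp4, the gene of plasma retinol-binding protein, had between 38.8 and 51.5 CPM in WT and between 7.39 and 14.7 CPM in FIH-KO libraries. Crmp1 had between 21.8 and 42.2 CPM in WT and between 4.20 and 8.68 CPM in FIH-KO libraries. None of the 5 lies on the chromosome of Dtna.

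Dystrophin and utrophin came next. Dmd (ENSMUSG00000045103.20), the dystrophin gene on the X chromosome, had 1 read in the 8 libraries together, in WT hypoxia replicate 1. A count of 0 allows up to 3 reads for counting error alone, which is between 0.171 and 0.207 CPM in the 7 libraries without a read. Dystrophin RNA was therefore at or under this limit in those libraries, and no fold change is given.

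Utrn (ENSMUSG00000019820.12), on the minus strand of chromosome 10 (12257537 to 12745265), encodes utrophin, which takes the place of dystrophin outside muscle. It had 113 and 111 CPM in WT normoxia, 173 and 167 CPM in WT hypoxia, 235 and 211 CPM in FIH-KO normoxia, and 258 and 265 CPM in FIH-KO hypoxia. The 4 groups did not overlap, with WT normoxia lowest and FIH-KO hypoxia highest. The level in FIH-KO cells was 1.99-fold that of WT cells in normoxia (log2 fold change 0.99, SE 0.10, edgeR adjusted p = 5.4e-05) and 1.54-fold in hypoxia (0.62, SE 0.10, edgeR adjusted p = 0.0012). Hypoxia raised Utrn 1.52-fold in WT cells (0.60, SE 0.10, edgeR adjusted p = 0.0012). These 3 calls were kept in every alternative and with each library left out. In FIH-KO cells the log2 fold change by oxygen was 0.23 (SE 0.10, edgeR adjusted p = 0.15). The genotype effect was smaller in hypoxia by 0.37 on the log2 scale, with an unadjusted p of 0.0257 in edgeR and an adjusted p of 0.66, so this difference was not called.

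The summed level of the 4 mesenchymal markers (Vim, Cdh2, Fn1 and Zeb1) was 4423 and 5185 CPM in WT normoxia, 6039 and 5610 in WT hypoxia, 8285 and 9078 in FIH-KO normoxia, and 11080 and 9239 CPM in FIH-KO hypoxia. The order of the groups resembled that of Utrn through Fn1, which had 954 and 1100 CPM in WT normoxia, 2328 and 2305 in WT hypoxia, 2843 and 3740 in FIH-KO normoxia, and 5533 and 4420 CPM in FIH-KO hypoxia. Vim, the most abundant of the 4, was higher in FIH-KO libraries and overlapped between WT normoxia and WT hypoxia, and Cdh2 had between 22.4 and 25.9 CPM in WT and between 26.5 and 28.5 CPM in FIH-KO libraries. Zeb1 did not follow Utrn, with 70.4 and 81.0 CPM in WT normoxia, 71.9 and 92.2 in WT hypoxia, 99.7 and 92.4 in FIH-KO normoxia, and 74.3 and 91.4 CPM in FIH-KO hypoxia. The part of these genes in the Utrn result was not tested. The 6 tested genes nearest to Utrn had a median log2 fold change by genotype of 0.02 in normoxia and 0.05 in hypoxia, beside 0.19 and 0.14 for the other tested genes of its chromosome. By oxygen their median was 0.34 in WT and 0.34 in FIH-KO cells, beside -0.01 and -0.02 for the other genes of the chromosome. Fbxo30 and Stx11 among the neighbours were called higher in hypoxia in both genotypes. Epm2a was higher too, by 5.20 in WT and 6.68 in FIH-KO cells on the log2 scale. It passed the filter on low counts through the hypoxia libraries, where it is high, so its rise is a description and not a test. Sf3b5 was called lower in WT hypoxia (-0.50, SE 0.17, edgeR adjusted p = 0.041), and Ltv1 had -0.14 there. Whether the rise of Utrn in hypoxia is shared with its neighbours was not tested.

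Dag1 (ENSMUSG00000039952.16), on the minus strand of chromosome 9 (108081833 to 108152333), encodes both subunits of dystroglycan. It had 206 and 226 CPM in WT normoxia, 262 and 274 in WT hypoxia, 245 and 240 in FIH-KO normoxia, and 350 and 373 CPM in FIH-KO hypoxia. In both genotypes the hypoxia libraries were above the normoxia libraries. The rise of Dag1 in FIH-KO cells was 1.49-fold (log2 fold change 0.58, SE 0.11, edgeR adjusted p = 0.0035) and was called in every alternative and with each library left out. In WT cells it was 1.24-fold (0.31, SE 0.11, edgeR adjusted p = 0.04). That call was lost with upper-quartile factors (0.29, edgeR adjusted p = 0.054) and with every gene of at least 1 read in the fit (0.30, edgeR adjusted p = 0.087). In these 2 fits the log2 fold change was about as large. With all WT libraries kept, the edgeR adjusted p ran from 0.014 to 0.087. The call was also lost without any single WT library, WT normoxia replicate 1 or 2 or WT hypoxia replicate 1 or 2. With a library left out, the log2 fold change ran from 0.25 to 0.35.

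For Dag1 the log2 ratio of FIH-KO to WT was 0.17 in normoxia (SE 0.11, edgeR adjusted p = 0.27) and 0.43 in hypoxia (SE 0.11, edgeR adjusted p = 0.0095). The second call was lost without WT hypoxia replicate 1 (0.40, edgeR adjusted p = 0.077), and the adjusted p ran from 0.0016 to 0.077 over the alternatives. The difference between the 2 values was 0.27 (SE 0.15, edgeR adjusted p = 0.8).

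The 6 tested neighbours of Dag1 had a median log2 fold change by oxygen of 0.50 in WT and 0.27 in FIH-KO cells, beside -0.02 and -0.03 for the other tested genes of its chromosome. Of them, Bsn and 4930447F24Rik were called higher in hypoxia in both genotypes. By genotype the medians were 0.14 in normoxia and 0.31 in hypoxia, beside -0.17 and -0.16. The single genes went both ways, from -0.41 to 2.70 by oxygen in WT and from -0.37 to 3.96 in FIH-KO cells, and no test was made of the neighbours as a group.

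The β-syntrophins, adaptors that bind dystrobrevin and utrophin, fell in hypoxia in WT cells. Sntb1 (ENSMUSG00000060429.13), on the minus strand of chromosome 15 (55499784 to 55771046), was the rarer form, with 93 and 107 reads in WT normoxia, 31 and 30 in WT hypoxia, 82 and 45 in FIH-KO normoxia, and 34 and 36 in FIH-KO hypoxia. In CPM these are 5.98 and 6.34, 1.74 and 2.05, 4.88 and 2.52, and 2.12 and 2.34. The WT normoxia libraries stood above all others, and the FIH-KO normoxia libraries were far apart. In WT cells Sntb1 was 3.26-fold lower in hypoxia (log2 fold change -1.70, SE 0.33, edgeR adjusted p = 0.0025), a call kept in every alternative and with each library left out. In FIH-KO cells the value was -0.72 (SE 0.34, edgeR adjusted p = 0.17). Its size depended on the FIH-KO normoxia libraries, with -0.17 without replicate 1 and -1.13 without replicate 2.

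The log2 ratio of FIH-KO to WT for Sntb1 was -0.74 in normoxia (SE 0.31, edgeR adjusted p = 0.096) and 0.24 in hypoxia (SE 0.36, edgeR adjusted p = 0.66). Without FIH-KO normoxia replicate 1, the higher of the 2 libraries, the value in normoxia was -1.29 (edgeR adjusted p = 0.031), in a range of adjusted p from 0.031 to 0.48. The difference between the oxygen conditions was 0.98 (SE 0.48, edgeR adjusted p = 0.76), which was not called.

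Sntb2 (ENSMUSG00000041308.7), on the plus strand of chromosome 8 (107662119 to 107751577), had 193 and 215 CPM in WT normoxia, 112 and 160 in WT hypoxia, 343 and 266 in FIH-KO normoxia, and 185 and 250 CPM in FIH-KO hypoxia. At either oxygen level both FIH-KO libraries lay above both WT libraries, and in either genotype both hypoxia libraries lay below both normoxia libraries. The level in FIH-KO cells was 1.49-fold that of WT cells in normoxia (log2 fold change 0.58, SE 0.19, edgeR adjusted p = 0.036) and 1.60-fold in hypoxia (0.68, SE 0.19, edgeR adjusted p = 0.019). In hypoxia it was 1.50-fold lower in WT cells (-0.58, SE 0.19, edgeR adjusted p = 0.032), and the value in FIH-KO cells was -0.49 (SE 0.19, edgeR adjusted p = 0.096). The smooth muscle marker Acta2 had the same directions, higher in FIH-KO libraries at either oxygen level and lower in hypoxia in either genotype, while Myh11, at most 0.456 CPM, was higher in hypoxia in WT cells and Cnn1 had at most 2 reads. Krt8 had the directions of Sntb2 too. It had 151.0 and 149.9 CPM in WT normoxia, 140.2 and 103.8 in WT hypoxia, 332.2 and 277.4 in FIH-KO normoxia, and 271.5 and 216.4 CPM in FIH-KO hypoxia. Krt18 overlapped between the genotypes at either oxygen level. The part of Acta2 and Krt8 in the Sntb2 result was not tested.

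Libraries of a group differed more for Sntb2 than for Utrn, and its calls were lost in some fits with a library left out. By genotype in normoxia the call was lost without WT normoxia replicate 1 or 2 or FIH-KO normoxia replicate 1 (log2 fold changes 0.50, 0.64 and 0.39, edgeR adjusted p = 0.21, 0.11 and 0.27, in a range from 4.3e-05 to 0.27). In hypoxia it was lost without WT hypoxia replicate 1 or FIH-KO hypoxia replicate 2 (both log2 fold changes 0.44, edgeR adjusted p = 0.19 and 0.12, from 6e-07 to 0.19). By oxygen in WT cells it was lost without WT normoxia replicate 1 or 2 or WT hypoxia replicate 1 (log2 fold changes -0.66, -0.53 and -0.35, edgeR adjusted p = 0.076, 0.16 and 0.27, from 4.2e-05 to 0.27). In FIH-KO cells a call was gained without FIH-KO hypoxia replicate 2 (-0.72, edgeR adjusted p = 0.027) and with every gene of at least 1 read in the fit (-0.48, edgeR adjusted p = 0.0025), in a range up to 0.44. The direction was the same in each of these fits, and in some that lost a call the fold change was as large as with all libraries.

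Per kilobase of exon, Sntb2 exceeded Sntb1 in every library. The ratio was 15.8 and 16.7 in WT normoxia, 31.6 and 38.4 in WT hypoxia, 34.5 and 51.9 in FIH-KO normoxia, and 42.7 and 52.4 in FIH-KO hypoxia. The WT normoxia libraries thus had the least uneven pair.

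Neither sarcoglycan was called in any comparison. Sgcb (ENSMUSG00000029156.12), on the minus strand of chromosome 5 (73790086 to 73805133), encodes β-sarcoglycan and had 25.3 and 30.6 CPM in WT normoxia, 20.5 and 24.2 in WT hypoxia, 35.7 and 35.1 in FIH-KO normoxia, and 26.8 and 30.1 CPM in FIH-KO hypoxia. Its log2 fold changes by genotype were 0.34 in normoxia (SE 0.15, edgeR adjusted p = 0.11) and 0.35 in hypoxia (SE 0.15, edgeR adjusted p = 0.1). By oxygen they were -0.33 in WT (SE 0.15, edgeR adjusted p = 0.12) and -0.31 in FIH-KO cells (SE 0.15, edgeR adjusted p = 0.17). None of these 4 values was called, although the groups compared did not overlap in either genotype or oxygen level.

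Sgce (ENSMUSG00000004631.16), on the minus strand of chromosome 6 (4672057 to 4747207), encodes ε-sarcoglycan, the widely expressed relative of the muscle form. It had between 10.8 and 15.3 CPM in all 8 libraries, with 11.7 and 12.0 CPM in WT normoxia and 10.8 and 11.4 CPM in FIH-KO normoxia. The groups barely differed, apart from a higher value in FIH-KO hypoxia replicate 2. Its log2 fold changes by genotype were -0.10 (SE 0.19, edgeR adjusted p = 0.75) and 0.08 (SE 0.19, edgeR adjusted p = 0.78).

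Sgce is maternally imprinted in the mouse together with Peg10, a retrotransposon-derived gene that starts 99 bases away on the opposite strand. Peg10 was lower in FIH-KO cells at both oxygen levels, with log2 fold changes of -0.94 (SE 0.15, edgeR adjusted p = 0.00093) and -0.90 (SE 0.15, edgeR adjusted p = 0.0013). The 95% confidence interval of Sgce was -0.51 to 0.32 in normoxia and -0.33 to 0.50 in hypoxia, and neither interval reached the value of Peg10. The 2 genes of this divergent pair thus had unequal fold changes by genotype. The 6 tested neighbours of Sgce, with Peg10, had a median of -0.23 in normoxia and -0.14 in hypoxia, beside -0.12 and -0.13 for its chromosome. Ppp1r9a, 155.5 kb away, averaged 20.75 reads per library and had log2 fold changes by genotype of -8.43 and -8.34, without a usable standard error. It passed the filter on low counts through the WT libraries, where it is high, so its fall is a description and not a test. Gm44250 (0.74, edgeR adjusted p = 0.0067) and Casd1 (0.44, edgeR adjusted p = 0.042) were called higher in FIH-KO cells in hypoxia. By oxygen Peg10 had 0.13 (SE 0.15) and 0.17 (SE 0.15), with edgeR adjusted p of 0.55 and 0.51, and Sgce 0.07 (SE 0.19) and 0.25 (SE 0.19), with edgeR adjusted p of 0.8 and 0.4.

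The complex was then set beside 62 further genes of its biology in 6 classes, of which 42 were tested. By genotype 7 were called higher and 4 lower in normoxia, with a median log2 fold change of 0.09 beside 0.00 for all tested genes, and 7 higher and 4 lower in hypoxia, with a median of 0.13 beside -0.03. By oxygen 5 were called higher and 6 lower in WT cells (median -0.03 beside 0.00), and 2 higher and 3 lower in FIH-KO cells (median -0.14 beside -0.03). Of all tested genes 15.2%, 14.1%, 16.9% and 8.84% were called higher and 13%, 13.9%, 15.5% and 8% lower in these comparisons.

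Several list genes had few or no reads. Dytn, Sntg1, Sntg2, Sgcz, Lama4, Egflam, Cav3 and Aqp4 had 0 reads in every library, and Sgca and Sgcd had 1 and 10 reads over all libraries. Single tested genes of 2 small classes are named here after their values were seen. Sspn, which encodes sarcospan, had between 10 and 28 reads in WT libraries and between 0 and 7 in FIH-KO libraries. Drp2, a dystrophin relative, had 59 and 54 reads in WT normoxia, 28 and 17 in WT hypoxia, 46 and 46 in FIH-KO normoxia, and 28 and 47 in FIH-KO hypoxia.

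Among 13 genes for extracellular ligands of dystroglycan, 7 were tested, and 0 were called higher and 2 lower in FIH-KO cells at each oxygen level. Over all tested genes 15.2% were called higher and 13% lower in normoxia, and 14.1% and 13.9% in hypoxia. Bgn, which encodes the matrix proteoglycan biglycan, had 308 and 219 reads in WT normoxia, 314 and 188 in WT hypoxia, 49 and 47 in FIH-KO normoxia, and 6 and 24 in FIH-KO hypoxia. Its log2 fold change by genotype was -2.56 in normoxia (SE 0.36, edgeR adjusted p = 0.00036) and -3.98 in hypoxia (SE 0.42, edgeR adjusted p = 5.8e-05). The size in hypoxia depended on the FIH-KO libraries, with -3.28 without FIH-KO hypoxia replicate 1 and -5.32 without replicate 2.

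By oxygen 2 ligand genes were called higher and 1 lower in WT cells, and 1 higher and 2 lower in FIH-KO cells. Over all tested genes 16.9% were called higher and 15.5% lower in WT cells, and 8.84% and 8% in FIH-KO cells. The ligand genes called higher in WT hypoxia were Slit2 and Lama3. They were chosen after their values were seen and fall outside the rule for naming list genes. Both passed the filter on low counts through the hypoxia libraries, where they are high, so their calls are a description and not a test. Slit2 had 5 and 11 reads in WT normoxia, 88 and 40 in WT hypoxia, 1 and 0 in FIH-KO normoxia, and 31 and 9 in FIH-KO hypoxia, and was also the gene called higher in FIH-KO hypoxia and the other gene called lower by genotype. Lama3 had 2 and 2, 32 and 12, 4 and 0, and 16 and 7 reads in the same groups. Lama5, a laminin α chain gene at 418 to 757 CPM, was lower in hypoxia in WT (-0.45, SE 0.13, edgeR adjusted p = 0.022) and in FIH-KO cells (-0.59, SE 0.13, edgeR adjusted p = 0.011). Those calls were lost without WT normoxia replicate 2 or WT hypoxia replicate 1 (-0.35 and -0.33, both edgeR adjusted p = 0.18, from 0.0012 to 0.18) and without FIH-KO normoxia replicate 2 (-0.53, edgeR adjusted p = 0.059, from 3.5e-05 to 0.059).

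The enzymes that build the laminin-binding sugar chain of dystroglycan were mostly detected, with 16 of 19 genes tested. By genotype 3 were called higher in normoxia and 4 in hypoxia, and 0 lower. Over all tested genes 15.2% and 14.1% were called higher, and 13% and 13.9% lower. The median log2 fold change of the class was 0.17 in normoxia and 0.25 in hypoxia, beside 0.00 and -0.03 for all tested genes. Rxylt1, a xylosyltransferase gene of this chain, had between 34.9 and 44.8 CPM in WT and between 53.3 and 62.3 CPM in FIH-KO libraries, with log2 fold changes of 0.53 (SE 0.13, edgeR adjusted p = 0.0092) and 0.55 (SE 0.13, edgeR adjusted p = 0.0079). Dpm2, a subunit gene of dolichol-phosphate mannose synthase, had 0.47 (SE 0.12, edgeR adjusted p = 0.011) and 0.65 (SE 0.12, edgeR adjusted p = 0.0018). No FIH-KO library overlapped a WT library for either gene.

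Some of these calls were lost in fits with a library left out, which have fewer samples. That of Rxylt1 in normoxia was lost without WT normoxia replicate 2 (log2 fold change 0.38, edgeR adjusted p = 0.14) and without FIH-KO normoxia replicate 1 (0.48, edgeR adjusted p = 0.067), and that in hypoxia without WT hypoxia replicate 2 (0.47, edgeR adjusted p = 0.069), in ranges of adjusted p from 0.003 to 0.14 and from 0.0014 to 0.069. That of Dpm2 in normoxia was lost without WT normoxia replicates 1 or 2 or FIH-KO normoxia replicate 1 (edgeR adjusted p = 0.069, 0.11 and 0.052, from 0.0074 to 0.11), with log2 fold changes of 0.50, 0.41 and 0.47, about as large as with all libraries. Of the 16 tested genes of this class, 2 were called higher and 1 lower in hypoxia in WT cells, and 1 higher and 0 lower in FIH-KO cells. Over all tested genes 16.9% were called higher and 15.5% lower in WT cells, and 8.84% and 8% in FIH-KO cells. The gene of this class called lower was Dolk, named after its value was seen. It had -0.63 in WT cells (SE 0.16, edgeR adjusted p = 0.0095) and -0.46 in FIH-KO cells (SE 0.15, edgeR adjusted p = 0.056). Gmppa, which encodes a regulator of GDP-mannose synthesis, was higher in hypoxia in WT (0.48, SE 0.13, edgeR adjusted p = 0.015) and in FIH-KO cells (0.44, SE 0.13, edgeR adjusted p = 0.033). The first call was lost without WT normoxia replicate 1 or WT hypoxia replicates 1 or 2 (0.37, 0.46 and 0.50, edgeR adjusted p = 0.15, 0.077 and 0.056, from 0.0037 to 0.15). The second was lost without FIH-KO normoxia replicate 2 or FIH-KO hypoxia replicate 1 (0.33 and 0.36, edgeR adjusted p = 0.19 and 0.14) and in a fit of the 4 libraries (0.47, edgeR adjusted p = 0.08), in a range of adjusted p from 0.02 to 0.19.

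Of 20 cytoplasmic and signaling partners, 16 were tested, and 3 were called higher and 1 lower in FIH-KO cells at each oxygen level. Over all tested genes 15.2% were called higher and 13% lower in normoxia, and 14.1% and 13.9% in hypoxia. Dtnbp1 encodes dysbindin, named for its binding to dystrobrevin. It had between 31.3 and 36.3 CPM in WT libraries, 67.8 and 61.6 CPM in FIH-KO normoxia and 49.5 and 50.6 CPM in FIH-KO hypoxia. FIH-KO over WT gave 0.91 on the log2 scale in normoxia (SE 0.12, edgeR adjusted p = 0.00027) and 0.65 in hypoxia (SE 0.12, edgeR adjusted p = 0.0023), called in every alternative and with each library left out. A link between Dtnbp1 and the level of Dtna was not tested.

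The ankyrins, which anchor dystrophin and dystroglycan to the membrane, moved apart. Ank2 had 80 and 91 reads in WT normoxia, 243 and 191 in WT hypoxia, 6 and 1 in FIH-KO normoxia, and 7 and 1 in FIH-KO hypoxia. It is among the genes named above because they followed Dtna, so its likeness to Dtna is no separate result. By oxygen in FIH-KO cells Ank2 had 0.32 on the log2 scale (SE 0.89, edgeR adjusted p = 0.85). Ank3 had between 114 and 134 CPM in WT libraries, 194 and 193 CPM in FIH-KO normoxia and 169 and 157 CPM in FIH-KO hypoxia. FIH-KO over WT gave 0.70 on the log2 scale in normoxia (SE 0.11, edgeR adjusted p = 0.00059) and 0.35 in hypoxia (SE 0.11, edgeR adjusted p = 0.029). The second call was lost without WT hypoxia replicates 1 or 2 (0.28 and 0.41, edgeR adjusted p = 0.19 and 0.062), without FIH-KO hypoxia replicate 1 (0.29, edgeR adjusted p = 0.088) and in a fit of the 4 libraries (0.37, edgeR adjusted p = 0.054), in a range of adjusted p from 0.021 to 0.19. Actn4, the gene of an actin-bundling α-actinin, fell in hypoxia in WT (-0.58, SE 0.12, edgeR adjusted p = 0.0028) and in FIH-KO cells (-0.53, SE 0.12, edgeR adjusted p = 0.0096). The latter call was lost without FIH-KO normoxia replicate 2 (-0.44) and in a fit of the 4 libraries (-0.50, both edgeR adjusted p = 0.062, from 0.00034 to 0.062), the latter with a fold change about as large.

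As the complex genes included some that rose and some that fell in hypoxia, the 250 bases before the annotated start of the canonical transcript were read for each from GRCm39 and searched on both strands for ACGTG and GCGTG, the core letters of the element that HIF binds. At least 1 core was found in 5 of the 8 tested genes, Utrn, Dag1, Sntb1, Sntb2 and Sgce. Windows of the same length held a core in 6291 of 11622 tested protein-coding genes (54.1%). Genes that rose and genes that fell in WT hypoxia were both among the 5, and Dtna, which rose, was not. A match is a description of letters and not of binding, and other annotated starts were not searched. Some windows are themselves partly annotated as exon. Those of Dtna, Sntb1 and Sntb2 share bases with exons of 12, 3 and 8 transcripts of the same gene. That of Dtnb does so with 1 transcript of Dtnb, and that of Sgce with 2 of Peg10.

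The windows of Utrn and Dag1 are shown because both genes were called higher in WT hypoxia and no exon of an annotated protein-coding transcript lies in them. That of Utrn is chr10:12745266-12745515 and that of Dag1 chr9:108141165-108141414, both on the minus strand, and an exon of the antisense transcript Gm69433 shares bases with the latter. The Dag1 window lies inside the annotated span of the gene, which runs to 108152333. Utrn held GCGTG from 132 to 128 bases before the start, and again on the opposite strand, read here as CACGC, from 94 to 90 bases before it. Dag1 held GCGTG 3 times on its own strand, beginning 112, 59 and 39 bases before the start. The sequences run from 5′ to 3′ along the gene, with the cores in capitals.
Utrn: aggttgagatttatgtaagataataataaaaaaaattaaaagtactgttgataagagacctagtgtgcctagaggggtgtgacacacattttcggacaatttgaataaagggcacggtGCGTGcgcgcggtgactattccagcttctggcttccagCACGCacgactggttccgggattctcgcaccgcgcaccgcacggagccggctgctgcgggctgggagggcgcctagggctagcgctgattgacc
Dag1: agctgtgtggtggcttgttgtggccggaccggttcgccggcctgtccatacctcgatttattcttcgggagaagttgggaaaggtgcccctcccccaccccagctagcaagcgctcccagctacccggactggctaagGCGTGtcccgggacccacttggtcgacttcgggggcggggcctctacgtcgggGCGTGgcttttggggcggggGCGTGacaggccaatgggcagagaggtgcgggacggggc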

How the data were processed

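The authors sequenced stranded mRNA libraries, aligned the reads with STAR to GRCm39 and counted them per gene with HTSeq, and the deposited values are these raw counts. The strand setting of the counting and the handling of reads with several matches are not given in the sources used here. Annotated genes that overlap a complex gene and were counted had 8 reads or fewer over all libraries.

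Positions and exon lengths came from GENCODE for GRCm39, in which 52610 identifiers (97.97%) were found. The counts were tested with edgeR 4.0.16 under R 4.3.3 (filterByExpr, TMM, quasi-likelihood F test, a mean for each of the 4 groups). The code was tested on simulated counts. Alternatives were DESeq2 1.42.0, RLE or upper-quartile factors, 2 other filters, fits of 4 libraries, the replicate number as a term, and each library of a comparison left out.

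The members and lists were chosen with earlier results of these data known. Of the list genes, those averaging 50 counts or more and called in both comparisons of genotype, or both of oxygen, in the same direction could be named, and not all of them are. Each marker list was summed per library.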

Additional observations from a re-analysis of the deposited data

How the results depend on the processing

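With 2 libraries per group, a fit that leaves out a library keeps 1 library in a group, which is assumed to vary like the others. The number of genes called then ran from 1725 to 3412 (3933 with all libraries) for FIH-KO against WT in normoxia, 2194 to 3762 (3896) in hypoxia, 2138 to 2859 (4509) for oxygen in WT, 1118 to 2580 (2345) for oxygen in FIH-KO, and 0 to 17 (0) for the difference of the FIH-KO effect. The 17 came without FIH-KO hypoxia replicate 1. Complex genes called, without Dtna by genotype, ran from 1 to 2 (2), 1 to 3 (3), 3 to 4 (5), 1 to 3 (1) and 0 (0). Fewer samples are part of these fits, and other causes were not tested.

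Other alternatives moved a count by over 1.5 times in these cases, whose cause was not tested: oxygen in FIH-KO gave 1249 genes in a fit of the 4 libraries and 2 complex genes with every gene of at least 1 read. The difference of the FIH-KO effect gave 143 genes with that filter, 40 with DESeq2 and 5 with the replicate block. Replicate numbers are only shared: deviations of same-numbered libraries from their group means correlated between -0.010 and 0.193. With the replicate block 4080, 4039, 4593 and 2479 genes were called in the other comparisons, and the calls of complex genes numbered 2, 3, 5 and 1.

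Of 272 fits of a complex gene under an alternative that kept all libraries of its comparison, 269 kept direction and side of the threshold. Direction changed in 14 of 192 fits with a library left out, all for values that were not called. The lowest and highest log2 values were -0.16 and 0.29 for Sgce by genotype in hypoxia, -0.0219 and 0.27 for Dtnb by oxygen in WT, and -0.18 and 0.23 for Dtnb by oxygen in FIH-KO. For the difference of the FIH-KO effect they were -0.82 and 0.0218 for Dtna, -0.32 and 0.10 for Dtnb, -0.14 and 0.38 for Sntb2, -0.10 and 0.14 for Sgcb, and -0.0632 and 0.39 for Sgce. For Dtna by genotype, leaving out FIH-KO replicate 1 moved the log2 fold change to -3.63 in normoxia and -4.07 in hypoxia. Counts under about 50 reads, as for Dtna in FIH-KO cells and for Sntb1 in hypoxia, limit the precision of their ratios, and 2 libraries per group leave small differences undetectable.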
